A study of Mus musculus with 9 samples.

Results

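Prostaglandins and leukotrienes are lipid signals made from arachidonic acid, and the results below describe 10 genes of their synthesis and sensing in tumour monocytic myeloid-derived suppressor cells (M-MDSCs). The 10 genes were Pla2g4a, Ptgs1, Ptgs2, Ptges, Hpgds, Ptger2, Ptger4, Alox5, Alox5ap and Ltc4s. They were chosen by name as enzymes and receptors of prostaglandin E2 and leukotriene biology, and 10 of 10 symbols were found among the 54532 genes of the deposited FPKM table. FPKM is a read level scaled to gene length and library size, so it allows levels of different genes to be compared.

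M-MDSCs are monocyte-like cells that accumulate in tumours and restrain T cells. They were sorted from tumours formed by MC38, a mouse colon carcinoma line, and their poly-A RNA was sequenced in 9 libraries. Each of 3 genotypes had 3 libraries: WT, LILRB4+/+ (here the LILRB4 group) and LILRB4+/+ SCG2-/- (here the SCG2 knockout). All 9 libraries came from mice bearing MC38 tumours, and both genotypes other than WT carry LILRB4+/+. The labels do not give the nature of the LILRB4 allele, the cell type in which either allele acts, the mice's age, the sorting gate or the mouse behind each library. The spread that the p-values measure is therefore one between samples and may be technical.

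Arachidonic acid is freed from membrane phospholipid by cytosolic phospholipase A2, the product of Pla2g4a. The cyclooxygenases turn it into prostaglandin H2, from which terminal synthases make prostaglandin E2 or prostaglandin D2, and prostaglandin E2 raises cyclic AMP in myeloid cells through the receptors EP2 and EP4. In the other branch, 5-lipoxygenase with its partner protein FLAP makes leukotriene A4, which is turned into leukotriene B4 or, by leukotriene C4 synthase, into leukotriene C4. Prostaglandin E2 made by myeloid cells in tumours is known to dampen T cell responses.

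Ptgs2 encodes the inducible cyclooxygenase, and its promoter and those of Ptger2 and Ptgs1 are shown because Ptgs2 and Ptger2 were the members that passed the test between LILRB4 and WT, while Ptgs1 encodes the constitutive cyclooxygenase of the same reaction. The sequences are from RefSeq (GRCm38.p6) and run 5′ to 3′ from 250 bases before to 30 bases after the RefSeq start. They lie at chr1:150099781-150100060 (+) for Ptgs2, chr14:44987861-44988140 (+) for Ptger2 and chr2:36230176-36230455 (+) for Ptgs1. Capitals mark the matches named after them.
Ptgs2: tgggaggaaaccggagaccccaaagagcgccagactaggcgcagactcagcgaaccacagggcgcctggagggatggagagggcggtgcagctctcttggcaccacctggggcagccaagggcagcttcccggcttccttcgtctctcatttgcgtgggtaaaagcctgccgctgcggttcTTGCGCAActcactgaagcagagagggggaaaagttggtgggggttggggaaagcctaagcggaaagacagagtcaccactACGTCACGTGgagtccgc
Ptger2: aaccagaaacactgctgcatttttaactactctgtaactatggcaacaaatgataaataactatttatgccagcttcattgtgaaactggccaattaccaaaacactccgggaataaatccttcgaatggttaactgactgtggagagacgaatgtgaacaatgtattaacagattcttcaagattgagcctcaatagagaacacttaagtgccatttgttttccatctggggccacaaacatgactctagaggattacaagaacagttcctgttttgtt
Ptgs1: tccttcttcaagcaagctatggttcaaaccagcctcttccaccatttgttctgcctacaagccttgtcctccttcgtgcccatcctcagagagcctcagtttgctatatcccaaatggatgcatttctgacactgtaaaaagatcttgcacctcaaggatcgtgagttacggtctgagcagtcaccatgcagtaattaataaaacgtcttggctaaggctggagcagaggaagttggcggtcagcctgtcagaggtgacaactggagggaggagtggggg
Both strands were searched for 6 motifs, and all 32851 promoter windows of the same 280 bases served as background. The Ptgs2 window held TTGCGCAA, a match to the C/EBP motif TTGCNNAA, from base -69 to base -62 counted from the start, and 10.4% of all windows held that motif. It also held TGACGT, the core of the cyclic AMP element, read on the other strand as ACGTCA from base 13 to base 18, as did 7.26% of windows. The E-box CACGTG followed from base 17 to base 22 and shared bases with the cyclic AMP element, and 6.79% of windows held it. No match to the NF-kB motif (1.15% of windows), the AP-1 motif TGANTCA (7.46%) or TATAAA (13.1%) lay in the Ptgs2 window, and none of the 6 motifs lay in the Ptger2 or Ptgs1 window. Among the members found in the promoter table, Hpgds had a C/EBP match and Pla2g4a a TATAAA match, and Alox5ap was not in that table. The RefSeq start of Ptger2 lies 84 bases before the start of that gene in the deposited table, while those of Ptgs2 and Ptgs1 were the same as in the table. All of these are annotated starts, and where transcription began in these cells was not measured. Bases more than 250 before or more than 30 after the RefSeq start were not searched, so motifs there would be missed. Sites that differ from the letters searched would also be missed.

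Scg2 gave no check of the knockout. It had 1 recovered count in WT replicate 1, 1 in LILRB4 replicate 1 and 0 in the 7 others. Lilrb4a was at 138, 47.7 and 74.0 FPKM in WT replicates 1, 2 and 3, at 274, 154 and 160 in LILRB4 and at 131, 146 and 157 in SCG2 knockout libraries. Every LILRB4 library was above every WT library, as for 9.93% of 18904 genes. The SCG2 knockout overlapped both groups, and the labels do not say whether Lilrb4a reads the allele. Deposited counts summed to 14501163 to 27219202 per library.

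The members spanned a wide range of levels. Ordered by mean FPKM over the 9 libraries they were Ptgs2 (705), Alox5ap (93.5), Ptges (26.8), Ptgs1 (17.0), Ptger4 (10.3), Pla2g4a (6.46), Ptger2 (3.87), Alox5 (3.23), Ltc4s (1.99) and Hpgds (0.390). The ranges over libraries did not overlap between Ptgs2 and Alox5ap, between Ptges and Ptgs1, or between Ltc4s and Hpgds, and they did overlap for the other neighbours in this order. Ptger2 and Alox5 in particular could not be ordered, since Ptger2 was the higher of the pair in 5 of 9 libraries. Ptgs2 mRNA was among the most abundant of 22046 protein-coding genes. It ranked 123, 119 and 81 in WT replicates 1, 2 and 3, 19, 39 and 36 in the LILRB4 libraries, and 72, 39 and 51 in the SCG2 knockout libraries.

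**Figure D1:**
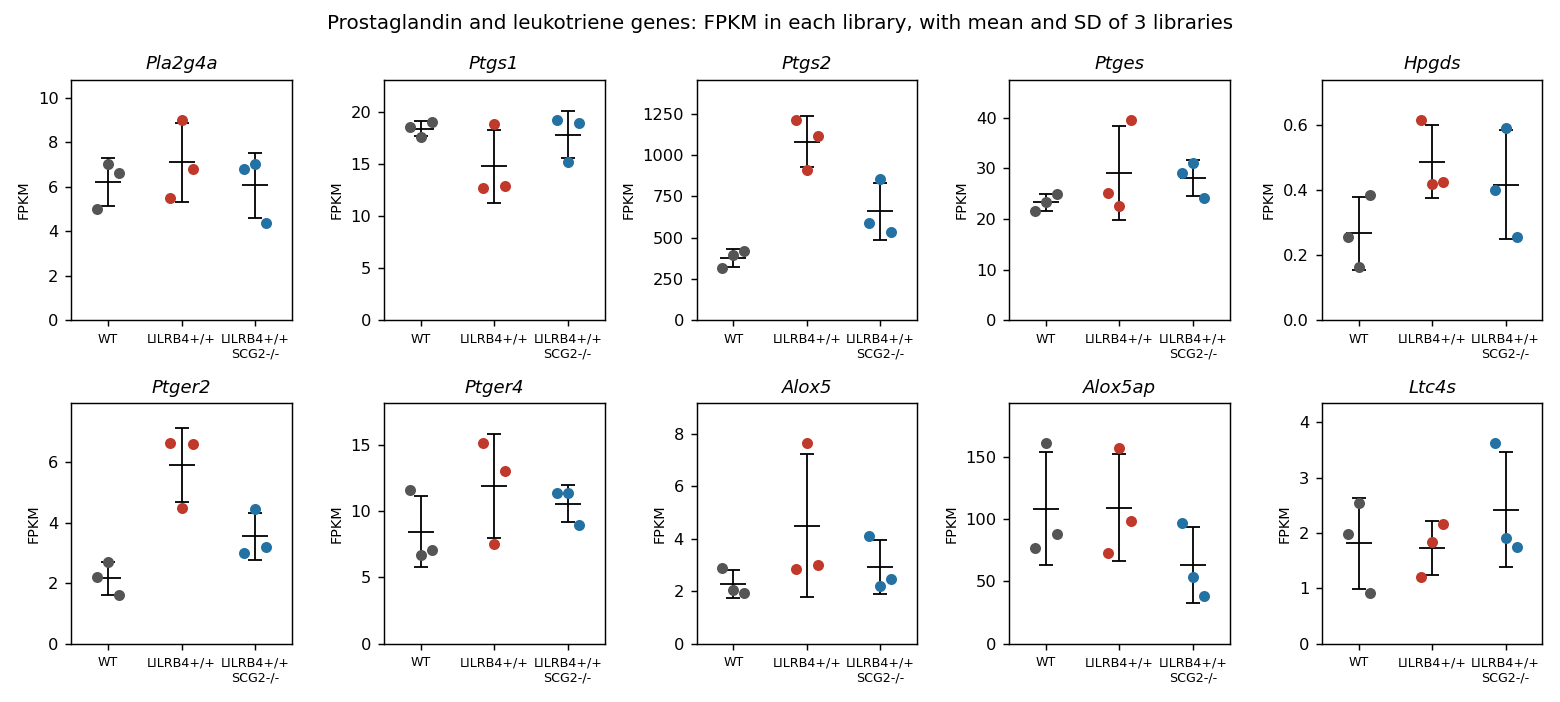
FPKM (vertical axes, each from 0) of the 10 members in the 3 WT, 3 LILRB4+/+ and 3 LILRB4+/+ SCG2-/- libraries; points are libraries in replicate order and bars are mean and SD. The 3 LILRB4+/+ points of Ptgs2 and of Ptger2 sit above all 6 other libraries, and the groups of Ptges, Ptgs1, Pla2g4a, Ptger4, Alox5, Alox5ap and Ltc4s overlap.

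Between LILRB4 and WT libraries, Ptgs2 and Ptger2 were the members called higher, the inducible cyclooxygenase 2.82-fold and the prostaglandin E2 receptor EP2 2.67-fold. No member was called lower. The 8 members in the deposited count table were tested with edgeR's quasi-likelihood test, with Benjamini-Hochberg adjustment over 9877 genes and a threshold of 0.05. Of the 8, 2 were called as higher and 0 as lower, and among all genes of that table the share called was 2.25%, 1.73% higher and 0.516% lower. Without adjustment, 3 members had a p under 0.05, beside 22.6% of all genes. The median log2 fold change of the 8 members was 0.38, against -0.02 for all genes tested. Members were chosen with earlier results of these data known, so this is a description. Ltc4s and Hpgds are not in the count table and were tested with limma on log2(FPKM + 1), a scale that understates changes of low genes, over 18904 genes, of which 0.101% were called in this comparison. In that fit 0 of the 10 members were called, 2 at an unadjusted p under 0.05, while edgeR on counts recovered from the FPKM values called 2 of 10 (0.87% of 15743 genes) and DESeq2 called 2 of 8 (6.2% of genes called higher).

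Pla2g4a (chromosome 1, 149829618 to 149961290, minus strand), which encodes the phospholipase that starts the pathway, was at 4.99, 7.04 and 6.61 FPKM in WT replicates 1, 2 and 3. It was at 5.49, 9.01 and 6.80 FPKM in the LILRB4 libraries and at 6.80, 7.02 and 4.37 FPKM in the SCG2 knockout libraries. The 3 groups overlapped. The log2 difference between LILRB4 and WT was 0.16 (SE 0.22, edgeR adjusted p = 0.684), and those of the SCG2 knockout were -0.17 against LILRB4 and -0.01 against WT. Pla2g4a is the neighbour of Ptgs2 on the chromosome, with 138740 bases between them.

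Ptgs2 (ENSMUSG00000032487, chromosome 1, 150100031 to 150108227, plus strand) was at 315, 394 and 421 FPKM in WT replicates 1, 2 and 3. In the LILRB4 libraries it was at 1214, 912 and 1117 FPKM, and in the SCG2 knockout libraries at 585, 857 and 533 FPKM. The lowest LILRB4 library thus lay above the highest SCG2 knockout library, which was replicate 2, and the lowest SCG2 knockout library lay above every WT library. Group means were 376 ± 54.8 FPKM in WT, 1081 ± 154 in LILRB4 and 658 ± 174 in the SCG2 knockout (SD, n = 3 each). The counts behind these values ran from 30969 in a WT library to 135401 in a LILRB4 library, so counting error is small beside the spread between libraries. The log2 fold change of LILRB4 against WT was 1.496 (SE 0.23, edgeR adjusted p = 0.0214). With 3 libraries a group that adjusted p was close to the threshold. It was 0.0510 to 0.109 without WT replicate 1, 2 or 3 or LILRB4 replicate 1 or 3, with log2 fold changes of 1.40 to 1.62 over all single libraries left out, and with limma on FPKM it was 0.0542. The antisense-strand neighbours Ptgs2os and Ptgs2os2 do not overlap Ptgs2. Ptgs2os was at 0.461 to 1.01 FPKM. Ptgs2os2 was at 3.13, 3.002 and 2.90 FPKM in WT, at 4.78, 3.52 and 6.62 in LILRB4 and at 5.05, 3.41 and 3.95 in SCG2 knockout libraries, so WT lay below both other groups. LILRB4 above WT without overlap was met by 9.93% of 18904 genes, and SCG2 knockout above WT by 10.5%.

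Ptgs1 (chromosome 2, 36230426 to 36252272, plus strand) encodes the constitutive cyclooxygenase and was not called. It was at 18.5, 17.6 and 19.1 FPKM in WT, at 12.7, 18.8 and 12.8 in LILRB4 and then at 19.2, 15.2 and 18.9 in SCG2 knockout libraries. LILRB4 replicates 1 and 3 were the lowest libraries, and replicate 2 was within the WT range. Its log2 difference between LILRB4 and WT was -0.35 (SE 0.17, edgeR adjusted p = 0.250). It was -0.54 to -0.22 over all single libraries left out (edgeR adjusted p 0.0642 to 0.703). The ratio of Ptgs2 to Ptgs1 FPKM was 20.5 ± 3.01 in WT libraries, 77.1 ± 25.1 in the LILRB4 group and 38.3 ± 15.7 in the SCG2 knockout (SD, n = 3 each). It ran from 17.0 to 22.4 in WT, from 48.5 to 95.8 in LILRB4 and from 28.1 to 56.5 in the SCG2 knockout, so the WT range was apart from both others, which overlapped each other.

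Ptges (chromosome 2, 30889471 to 30929863, minus strand), which encodes the inducible microsomal prostaglandin E synthase coupled to cyclooxygenase-2, was at 21.6, 23.4 and 24.9 FPKM in WT libraries. It was at 25.2, 22.5 and 39.6 FPKM in LILRB4 libraries and at 29.1, 31.1 and 24.2 FPKM in SCG2 knockout libraries. LILRB4 replicate 3 was the highest of the 9, and the groups overlapped. The log2 difference between LILRB4 and WT was 0.30 (SE 0.21, edgeR adjusted p = 0.403), and it was 0.01 without LILRB4 replicate 3. Hpgds (chromosome 6, 65117293 to 65144908, minus strand), the hematopoietic prostaglandin D synthase gene, was low, with 25 to 72 recovered counts per library. It was at 0.254, 0.162 and 0.386 FPKM in WT, at 0.616, 0.420 and 0.423 in LILRB4 and then at 0.400, 0.591 and 0.256 in the SCG2 knockout. Every LILRB4 library was above every WT library, as for 9.93% of 18904 genes, yet the difference on the log2(FPKM + 1) scale was 0.23 (SE 0.13, limma adjusted p = 0.415). With edgeR on recovered counts the log2 fold change was 0.85 (SE 0.42, adjusted p = 0.297).

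Ptger2 (ENSMUSG00000037759, chromosome 14, 44988195 to 45003820, plus strand) encodes EP2, a receptor that couples prostaglandin E2 to cyclic AMP. It was at 2.20, 2.70 and 1.61 FPKM in WT replicates 1, 2 and 3, at 6.62, 4.49 and 6.59 FPKM in the LILRB4 libraries and at 2.99, 4.44 and 3.20 FPKM in the SCG2 knockout libraries. The groups took the same order as for Ptgs2 and did not overlap, though LILRB4 replicate 2 and SCG2 knockout replicate 2 were nearly level. Group means were 2.17 ± 0.545 FPKM in WT, 5.90 ± 1.22 in LILRB4 and 3.55 ± 0.783 in the SCG2 knockout (SD, n = 3 each), from 172 to 906 counts per library. The log2 fold change of LILRB4 against WT was 1.41 (SE 0.25, edgeR adjusted p = 0.0269). Without WT replicate 1, 2 or 3 or LILRB4 replicate 1 or 3 the adjusted p was 0.0539 to 0.129, with log2 fold changes of 1.23 to 1.61 over all single libraries left out, and with limma it was 0.0754. An antisense gene, Gm17173, lies over the whole of Ptger2. It was at 0.165, 0.120 and 0.172 FPKM in WT, at 0.508, 0.338 and 0.777 in LILRB4 and at 0.211, 0.619 and 0.137 in SCG2 knockout libraries. LILRB4 thus lay above WT for it as for Ptger2, and as for 9.93% of 18904 genes. The library kit kept strand, but whether the counting used it is not given in the sources used here, and reads of the pair cannot be told apart without strand.

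Ptger4 (chromosome 15, 5206661 to 5244187, minus strand) encodes EP4, the other receptor that raises cyclic AMP. It was at 11.6, 6.70 and 7.10 FPKM in WT, at 15.1, 7.53 and 13.04 in LILRB4 and then at 11.3, 11.4 and 8.95 in SCG2 knockout libraries. The groups overlapped, and LILRB4 replicate 2 lay within the WT range. The log2 difference of Ptger4 between LILRB4 and WT was 0.46 (SE 0.28, edgeR adjusted p = 0.353). Ptger4 mRNA was above Ptger2 mRNA in every library, and the ratio of Ptger2 to Ptger4 FPKM was 0.273 ± 0.114 in WT, 0.513 ± 0.0788 in LILRB4 and 0.337 ± 0.0654 in the SCG2 knockout (SD, n = 3 each). Ttc33 overlaps 11676 bases of Ptger4 on the other strand and was at 4.51 to 6.60 FPKM.

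**Figure D2:**
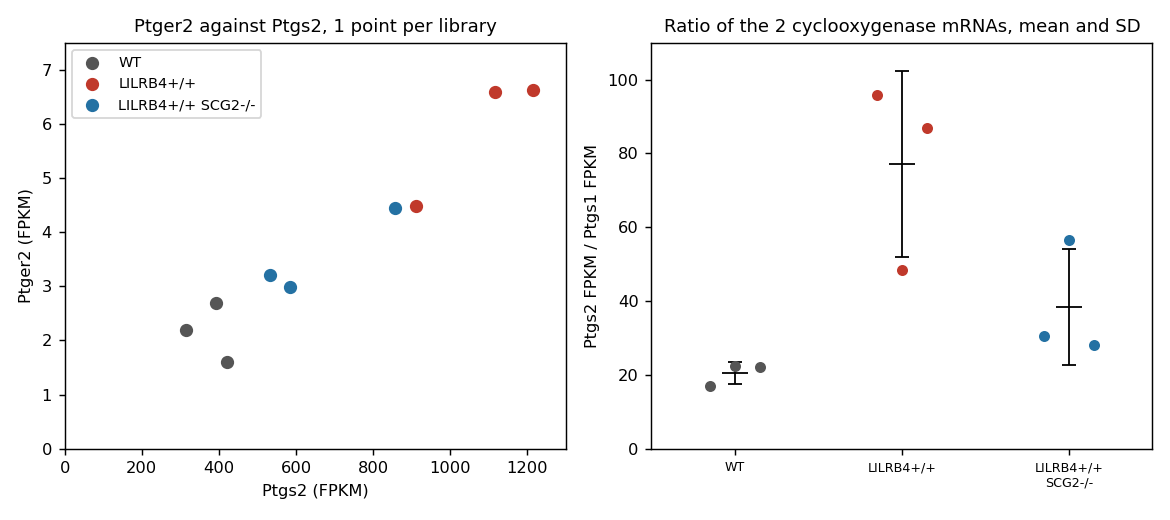
Left, FPKM of Ptger2 (vertical) against FPKM of Ptgs2 (horizontal), 1 point per library; right, the ratio of Ptgs2 to Ptgs1 FPKM by group, with mean and SD of 3 libraries. The WT libraries sit lowest for both genes, the LILRB4+/+ libraries highest and the SCG2 knockout libraries between them, and the ratio is 20.5 in WT, 77.1 in LILRB4+/+ and 38.3 in the knockout.

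Alox5 (chromosome 6, 116410077 to 116461178, minus strand) encodes 5-lipoxygenase, the first enzyme of leukotriene synthesis. It was at 2.88, 2.04 and 1.93 FPKM in WT replicates 1, 2 and 3, at 2.85, 7.62 and 3.01 in the LILRB4 libraries and at 4.12, 2.20 and 2.46 in the SCG2 knockout libraries. LILRB4 replicate 2 stood well above the other 8, among which the groups overlapped. The log2 difference between LILRB4 and WT was 0.93 (SE 0.39, edgeR adjusted p = 0.190), and it was 0.34 without LILRB4 replicate 2. Alox15, which encodes a 12/15-lipoxygenase, was likewise at 16.8 FPKM in LILRB4 replicate 2, at 3.30 and 3.23 FPKM in LILRB4 replicates 1 and 3 and at no more than 2.07 FPKM elsewhere. Its log2 difference between LILRB4 and WT was 2.20 (SE 0.62, edgeR adjusted p = 0.0875), and 0.98 without that library. DESeq2 called it (log2 2.23, adjusted p = 0.00214), while limma on FPKM did not (adjusted p = 0.234). Genes entered the count table by their counts in LILRB4 replicates 1 and 3. Alox15 was higher there than in every WT and SCG2 knockout library, so that call is favoured by the filter.

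Alox5ap (chromosome 5, 149264767 to 149288153, plus strand) encodes FLAP, which presents arachidonic acid to 5-lipoxygenase. It was at 77.0, 160 and 87.7 FPKM in WT, at 72.8, 156 and 98.1 in LILRB4 and then at 97.1, 53.3 and 38.3 in SCG2 knockout libraries. Replicate 2 of WT and replicate 2 of LILRB4 were the high libraries, replicates 2 and 3 of the SCG2 knockout were the low ones, and the groups overlapped. LILRB4 differed from WT by -0.02 on the log2 scale (SE 0.40, edgeR adjusted p = 0.981). Ltc4s (chromosome 11, 50236461 to 50238616, minus strand), the leukotriene C4 synthase gene, was at 1.98, 2.54 and 0.910 FPKM in WT, at 1.20, 1.83 and 2.16 in LILRB4 and then at 3.61, 1.90 and 1.74 in SCG2 knockout libraries, from 19 to 67 recovered counts. Its difference between LILRB4 and WT was -0.01 on the log2(FPKM + 1) scale (SE 0.28, limma adjusted p = 0.992), and the antisense gene Gm26542 lies over part of it at 0.148 to 0.883 FPKM.

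Markers of cell types also differed between libraries of a group. Summed T and NK cell markers (15 of 15 found) were at 403, 123 and 150 FPKM in WT replicates 1, 2 and 3, at 740, 113 and 642 in LILRB4 and at 448, 750 and 663 in SCG2 knockout libraries. Summed monocyte markers (10 of 10 found) were at 1498, 3648 and 2315 FPKM in WT, at 2573, 3834 and 3028 in LILRB4 and then at 3057, 2067 and 1371 in the SCG2 knockout. The libraries highest in Alox5ap, replicate 2 of WT and of LILRB4, were thus the lowest in T and NK markers and the highest in monocyte markers. Summed neutrophil markers (10 of 10 found) were at 40.1, 76.04 and 40.2 FPKM in WT, at 77.8, 226 and 103 in LILRB4 and at 49.9, 39.98 and 34.6 in SCG2 knockout libraries. LILRB4 replicate 2 was the highest in these markers and in Alox5, and all 3 LILRB4 libraries lay above the 6 others, as they did for Ptgs2, Ptger2 and Cyp4f18, a pathway gene described further on. Within the LILRB4 group, replicate 2 was the lowest for Ptgs2 and Ptger2 and the highest for Cyp4f18. Of the 10 neutrophil markers, 2 stayed under 1 FPKM in every library. Ly6g, 1 of the 10, was listed at 0 in 7 of 9 libraries, LILRB4 replicate 2 included, so it did not follow the sum there. Whether neutrophils were present was not tested. Mast cell markers (10 of 10 found) summed to 13.54, 7.94 and 8.40 FPKM in WT libraries. They summed to 20.1, 13.03 and 16.2 in LILRB4 and to 13.53, 20.3 and 17.8 in SCG2 knockout libraries. WT replicates 2 and 3 thus lay below both other groups, and WT replicate 1 overlapped them. Ms4a2, a mast cell marker, was at 0 in 8 libraries, and basophil markers (4 of 4 found) summed to under 1. Over all libraries, fibroblast markers summed to 163 to 294 FPKM and dendritic cell markers to 36.1 to 158. Platelet markers summed to 13.5 to 86.1 and endothelial markers to 5.14 to 15.5. The part of these cell types in the values of Ptgs2, Ptger2, Hpgds, Cyp4f18 and the leukotriene genes was not tested. In bulk RNA fewer cells of a type and less RNA per cell cannot be told apart. In T and NK markers LILRB4 replicates 1 and 3 lay above every WT library and LILRB4 replicate 2 below every WT library.

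**Figure D3:**
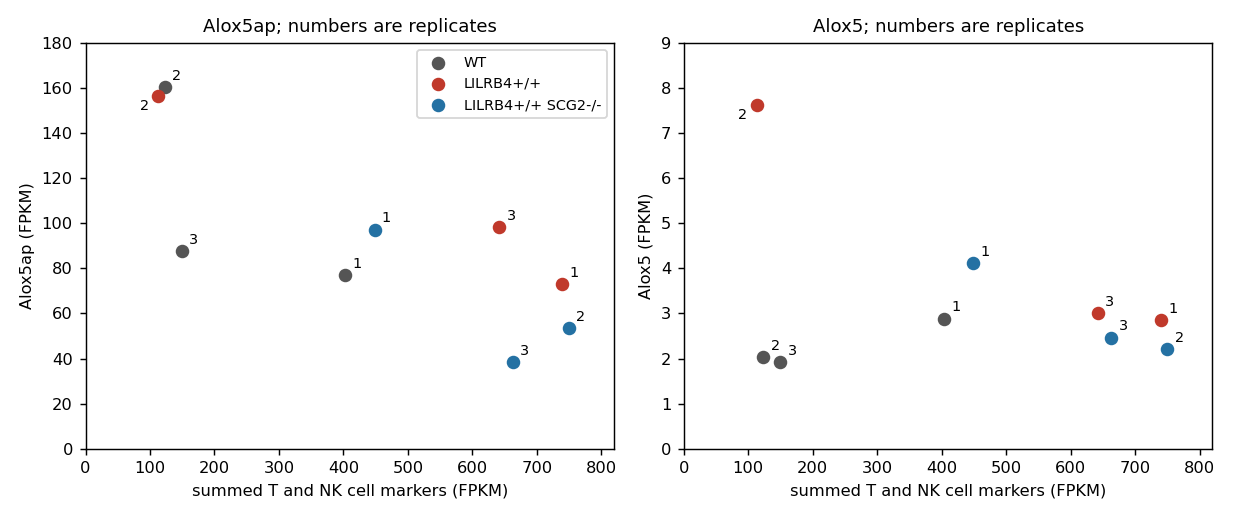
FPKM of Alox5ap (left) and Alox5 (right) against the summed FPKM of 15 T and NK cell markers, 1 point per library with its replicate number. Replicate 2 of WT and of LILRB4+/+ lie at the lowest marker sums with Alox5ap at 160 and 156, and LILRB4+/+ replicate 2 stands alone for Alox5 at 7.62.

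Between SCG2 knockout and LILRB4 libraries no member passed the test. edgeR called 0 of 8 members, and 0% of all 9877 genes. At an unadjusted p under 0.05 there were 2 members, Ptgs2 and Ptger2, beside 11.1% of genes, and limma and edgeR on recovered counts called 0 of 10. The log2 difference of Ptgs2 was -0.66 (SE 0.23, unadjusted p = 0.0142, edgeR adjusted p = 0.359) and that of Ptger2 was -0.68 (SE 0.24, unadjusted p = 0.0167, edgeR adjusted p = 0.364). DESeq2 called Ptgs2 (log2 -0.69, adjusted p = 0.0431) among 2.37% of genes called lower, and not Ptger2 (adjusted p = 0.158). The FPKM ranges of Ptgs2 and Ptger2 lay below those of LILRB4 without overlap, which 7.93% of 18904 genes also did. Alox5ap differed by -0.73 (SE 0.41), Alox5 by -0.55 (SE 0.39), Ptgs1 by 0.33 (SE 0.17), Ptger4 by -0.12 (SE 0.28) and Ptges by 0.00 (SE 0.21) on the log2 scale, with edgeR adjusted p from 0.494 to 0.999 including Pla2g4a. Ltc4s and Hpgds differed by 0.30 (SE 0.28) and -0.07 (SE 0.13) on the log2(FPKM + 1) scale. The median over the 8 members was -0.36, against 0.03 for all genes tested.

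Between SCG2 knockout and WT libraries edgeR again called 0 of 8 members and 0% of genes, with Ptgs2 and Ptger2 at an unadjusted p under 0.05 beside 14.6% of genes. Limma and edgeR on recovered counts called 0 of 10 members. The log2 difference of Ptgs2 was 0.83 (SE 0.23, unadjusted p = 0.00379, edgeR adjusted p = 0.317) and that of Ptger2 was 0.73 (SE 0.24, unadjusted p = 0.0123, edgeR adjusted p = 0.317). DESeq2 called Ptgs2 (log2 0.82, adjusted p = 0.0170) among 0.699% of genes called higher. Both genes lay above WT without overlap, as 10.5% of genes did, and the order of WT below SCG2 knockout below LILRB4 with no overlap between any pair of groups was met by 94 genes, 0.497% of those tested, Ptgs2 and Ptger2 being the members among them. The comparisons share libraries, so the SCG2 knockout values are not independent of the LILRB4 against WT result. Of the other members, Alox5ap differed from WT by -0.76 (SE 0.41), Alox5 by 0.38 (SE 0.39), Ptger4 by 0.34 (SE 0.28), Ptges by 0.30 (SE 0.21) and Ptgs1 by -0.02 (SE 0.17) on the log2 scale.

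**Figure D4:**
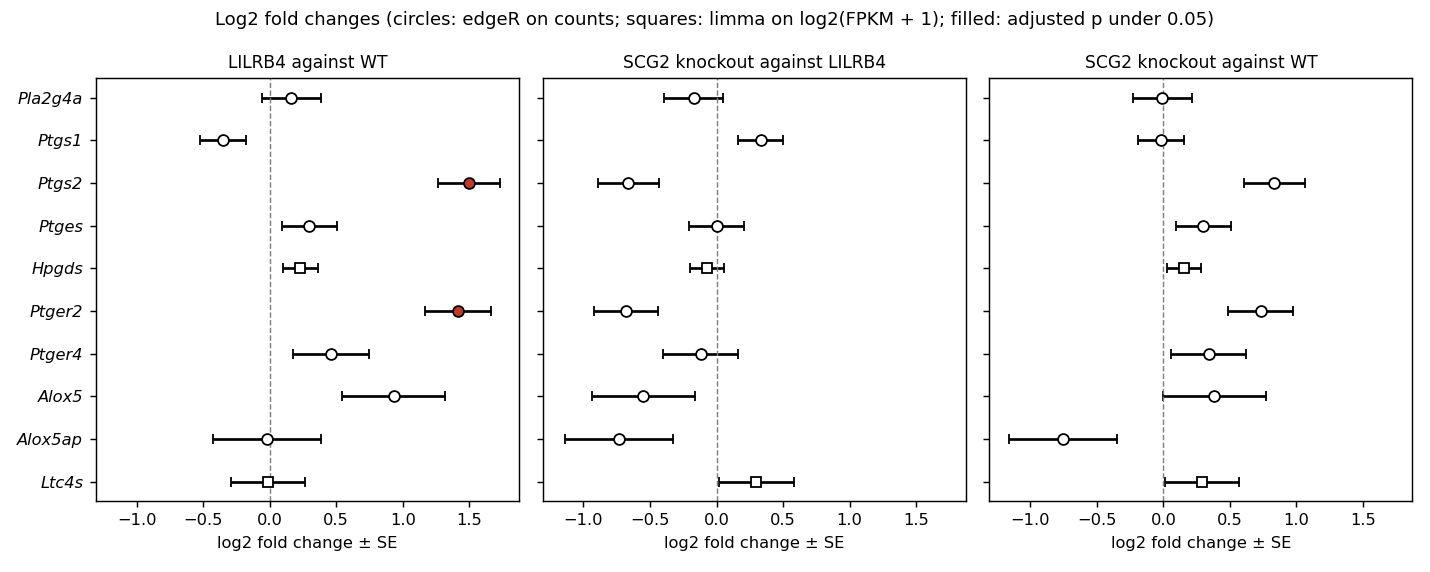
Log2 fold changes with SE of the 10 members in the 3 comparisons, from edgeR on counts (circles) or, for Hpgds and Ltc4s, limma on log2(FPKM + 1) (squares). Filled symbols, an adjusted p under 0.05, are Ptgs2 (1.496) and Ptger2 (1.41) in LILRB4 against WT, and no symbol is filled in the comparisons with the SCG2 knockout.

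As a description, the protein-coding genes with patterns most like Ptgs2 over the 9 libraries, by Pearson r of log2(FPKM + 1) among 10747 genes, were Slc7a8 (0.978), Tax1bp1 (0.978), Lrrc8d (0.976), Ttc19 (0.976) and Osgin2 (0.975). Ptger2 was the member most like Ptgs2 (0.935). Slc7a8, an amino acid transporter gene, was at 19.1 to 22.4 FPKM in WT, 35.2 to 43.5 in LILRB4 and 23.2 to 34.0 in SCG2 knockout libraries. Alox5ap, the leukotriene member of highest level, was most like Tyrobp (0.990), Napsa (0.989), Clec12a (0.987), Taldo1 (0.986) and Rnf130 (0.983). Tyrobp encodes a signalling adaptor of myeloid cells, and its FPKM was also highest in WT replicate 2 (639) and LILRB4 replicate 2 (547). The 9 points share groups, tumours and cell makeup, and the libraries of a group are not spread evenly.

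Among the other genes of the pathway, Cyp4f18 passed the test. Of 58 further genes in 7 lists, 25 were tested by edgeR, 15 by limma alone and 18 were not tested because they were too low or not found. Between LILRB4 and WT 1 of the 25 was called higher, beside 1.73% of all genes, and 0 lower. Without adjustment 8 had a p under 0.05, beside 22.6% of all genes, with a median log2 fold change of 0.07 against -0.02 for all genes tested. Of the 15 tested by limma alone, 0 were called. DESeq2 called Cyp4f18, Alox15, Abcc1 and Cysltr2 higher, where it called 6.2% of all genes higher. The calls of Alox15 and Cysltr2 are favoured by the filter of the count table. The product of Cyp4f18 inactivates leukotriene B4 in mouse myeloid cells. Cyp4f18 was at 52.0, 76.9 and 48.5 FPKM in WT, at 101, 149 and 113 in LILRB4 and then at 68.8, 53.5 and 44.4 in SCG2 knockout libraries, so that LILRB4 lay above both other groups. Cyp4f18 was thus among the 9.93% of 18904 genes with LILRB4 above WT without overlap and the 7.93% with SCG2 knockout below LILRB4. Its log2 fold change of LILRB4 against WT was 1.001 (SE 0.22, edgeR adjusted p = 0.0444), and DESeq2 called it too (adjusted p = 0.00105). The edgeR call was lost with recovered counts (adjusted p = 0.0616), with the 2 groups alone (0.0714) and with the replicate block (0.0625), and limma did not call it (adjusted p = 0.124). It was also lost without any 1 of the 6 LILRB4 or WT libraries or SCG2 knockout replicate 2 (adjusted p 0.0528 to 0.167). Against LILRB4, Cyp4f18 in the SCG2 knockout differed by -1.06 (SE 0.22, unadjusted p = 0.000544, edgeR adjusted p = 0.235), which DESeq2 called (log2 -1.10, adjusted p = 0.00167).

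By edgeR, or limma where edgeR did not test them, the other genes named by level were not called in any comparison, apart from Alox12e, which neither tested. DESeq2 called Alox15 between LILRB4 and WT and Akr1b3 between SCG2 knockout and LILRB4 (log2 0.45, adjusted p = 0.0413). The list headed arachidonate release holds phospholipase A2 family and related genes, and not all of them need release arachidonate. Of these, 0 of 5 tested by edgeR were called between LILRB4 and WT. Pla2g7 and Pla2g15 differed by 0.22 and -0.21 on the log2 scale. Among the other prostanoid synthases, 0 of 5 were called, and the cytosolic prostaglandin E synthase gene Ptges3 and Akr1b3 differed by -0.21 and -0.32. Among breakdown and transport genes, 0 of 5 were called, and Ptgr1 and Zadh2, both prostaglandin reductase genes, differed by -0.43 and -0.18. No other prostanoid receptor was in the count table. Ptgir, the prostacyclin receptor gene, was at 0.731 to 1.97 FPKM and Tbxa2r, the thromboxane receptor gene, at 0.132 to 1.20 FPKM. Among leukotriene and lipoxin receptors, 0 of 4 were called. Fpr2, a formyl peptide and lipoxin receptor gene, differed by 0.72, and Ltb4r1, the high-affinity leukotriene B4 receptor gene, by 0.10. Cotl1, whose product binds 5-lipoxygenase, differed by 0.53. Alox12e, not tested, stayed at or below 0.298 FPKM.

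Genes that respond to cyclic AMP, the second messenger of EP2 and EP4, were listed separately, and all 12 were tested by edgeR. Between LILRB4 and WT 1 was called higher, beside 1.73% of all genes, and 0 lower. Without adjustment 7 had a p under 0.05, beside 22.6% of all genes. The difference was positive for 11 of 12, beside 4742 of 9877 genes, and the median log2 fold change was 0.51, against -0.02 for all genes tested. DESeq2 called 5 of the 12 higher, where it called 6.2% of all genes higher. The gene that edgeR called was Nr4a3, a nuclear receptor gene of the immediate early response, at 27.0, 25.8 and 28.5 FPKM in WT, at 64.4, 58.0 and 50.1 in LILRB4 and then at 41.5, 57.0 and 52.4 in SCG2 knockout libraries. WT lay below both other groups, which overlapped. Nr4a3 was thus among the 9.93% of 18904 genes above WT without overlap in LILRB4 and the 10.5% in the SCG2 knockout. Its log2 fold change was 1.05 (SE 0.16, edgeR adjusted p = 0.0214; without any 1 of the WT libraries or LILRB4 replicate 1 the adjusted p was 0.0501 to 0.112, with limma 0.0507 and with the replicate block 0.0625). Nr4a1 and Dusp1, the list members of highest level, differed by -0.09 and 0.17. Between SCG2 knockout and LILRB4 edgeR called 0 of 12, 2 at an unadjusted p under 0.05 beside 11.1% of all genes, with a median of -0.11, and Nr4a3 differed by -0.13 (SE 0.16). Between SCG2 knockout and WT edgeR called 0 of 12, 5 at an unadjusted p under 0.05 beside 14.6% of all genes, with a median of 0.39. In that comparison DESeq2 called Nr4a3 (log2 0.91, adjusted p = 0.000188) and Pde4d, a cyclic AMP phosphodiesterase gene (log2 1.48, adjusted p = 0.0349). It called 0.699% of all genes higher there. Many signals other than prostaglandin E2 act on these genes. The list was chosen with earlier results of these data known, so its counts and medians are a description. They are no test of cyclic AMP signalling.

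**Figure D5:**
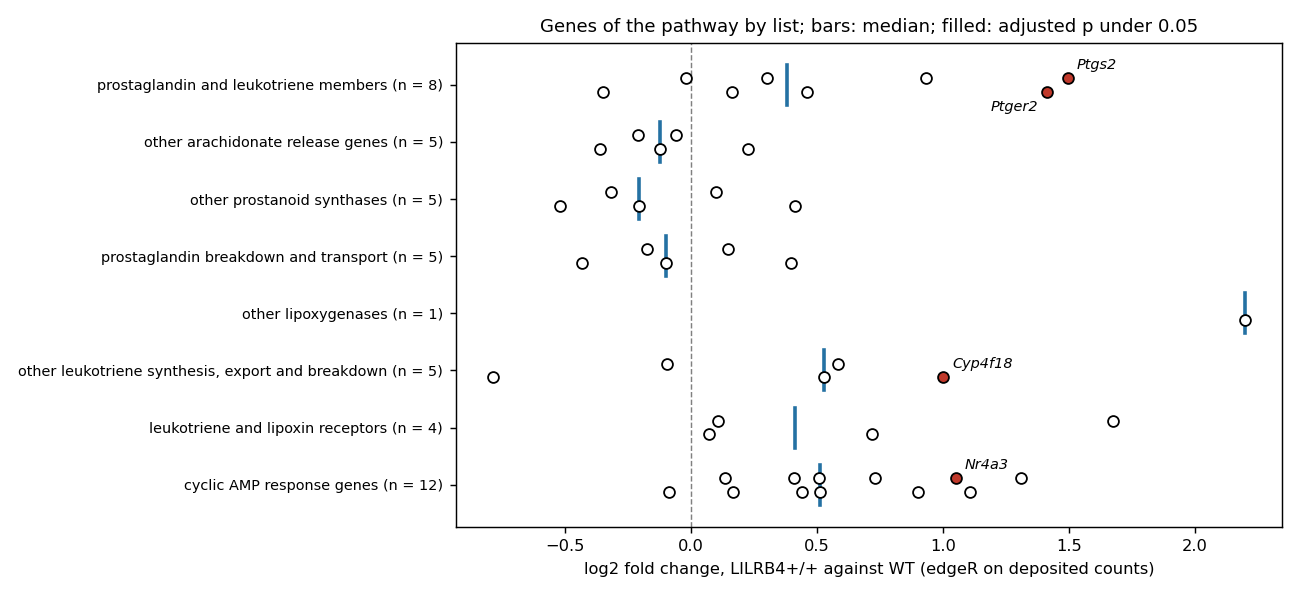
Log2 fold change of LILRB4+/+ against WT (horizontal) for every gene of each list that edgeR tested; filled points have an adjusted p under 0.05 and bars mark list medians. Ptgs2, Ptger2, Cyp4f18 and Nr4a3 are the filled points, and the open point at 2.20 is Alox15.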

How the data were processed

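Poly-A RNA of sorted M-MDSCs was read in 9 libraries. The submitters' processing notes name HISAT2 2.0.5 and featureCounts 1.5.0-p3, while build, annotation and strand setting are not given there or in the labels. Coordinates matched GENCODE M21 (GRCm38) for 10 of 10 members and 98.3% of genes found. The authors deposited raw counts for 9877 genes and FPKM for 54532 genes. Protein-coding genes entered the count table where LILRB4 replicates 1 and 3 both had at least 100 counts (9876 of 9876 such genes, and 1 more), which favours genes expressed there. Deposited FPKM values times gene length, rescaled once for each library, came out whole in 100% of cases (tolerance 0.01). These recovered counts differed from the count table in 56 of 88893 values and in 0 members.

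In R 4.3.3, edgeR 4.0.16 (TMM, minimum count of 10, robust quasi-likelihood test, all 9 libraries, 6 residual degrees of freedom) tested the deposited counts, and again the recovered counts (15743 genes). limma 3.58.1 tested log2 of deposited FPKM with a pseudocount of 1 and a mean FPKM of at least 0.1. P-values were adjusted by Benjamini-Hochberg. DESeq2 1.42.0, other scaling and filters, a replicate block and leaving out each library were alternatives. Members and lists were chosen with earlier results of these data known. Named were all members, each listed gene called, the 2 highest genes per list and the 5 genes most like Ptgs2 and Alox5ap. The code was tested on simulated counts. A count of 0 allows up to 3 counts, for counting error only. Of 58 further pathway genes, Prxl2b was not found by name, and Dpep2 named 2 identifiers.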

Additional observations from a re-analysis of the deposited data

How the results depend on the processing

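For Ptgs2 and Ptger2 every alternative kept the direction in all 3 comparisons. The number of members called between LILRB4 and WT was 2, and it became 1 with a mean count of at least 500 (which removes Ptger2), 0 with limma on FPKM, and 0 to 2 when single libraries were left out. The labels do not say whether same-numbered libraries share more than the number. For LILRB4 and WT their deviations correlated at 0.66, 0.54 and -0.45 for replicates 1, 2 and 3. In the 3 comparisons 4, 0 and 2 of 6 libraries were closest to their own number. With the replicate block 0 members and 0 pathway genes were called (Ptgs2 and Ptger2 both at an edgeR adjusted p of 0.0625 between LILRB4 and WT). In each SCG2 knockout comparison DESeq2 called 1 member against 0. From FPKM, 0 members were called between LILRB4 and WT, against 1 with log2(FPKM + 0.1), 2 with a mean FPKM of at least 1, 2 with edgeR on recovered counts, and 0 to 2 without single libraries, 2 being without LILRB4 replicate 2. Of the other listed genes, cyclic AMP genes included, 2 were called between LILRB4 and WT, against 9 with DESeq2, 1 with recovered counts, 0 with limma and 0 to 4 without single libraries (4 without LILRB4 replicate 2); from FPKM 0 were called, against 1 with log2(FPKM + 0.1), 1 with a mean FPKM of at least 1 and 1 with edgeR on recovered counts. DESeq2 called 2 of them in each SCG2 knockout comparison, against 0. The log2 differences that reversed were not called, with values as follows; for Alox5 and Pla2g15 between SCG2 knockout and LILRB4 (-0.55 and -0.33) and Fpr2 between SCG2 knockout and WT (-0.24) they were not near 0. Between LILRB4 and WT, Alox5ap was 0.0041 with DESeq2, 0.0043 with RLE factors, 0.00087 with recovered counts, 0.00078 with the replicate block, 0.016 with limma and -0.35 to 0.39 without single libraries; Ltc4s was 0.010 with log2(FPKM + 0.1) and -0.27 to 0.18 without single libraries. Between SCG2 knockout and LILRB4, Ptges was -0.027 with DESeq2, RLE factors and recovered counts, -0.012 with limma and -0.17 to 0.28 without single libraries. Without single libraries Ptger4 was -0.37 to 0.057, Pla2g4a -0.36 to 0.014, Alox5 -0.91 to 0.041 and Hpgds -0.16 to 0.0086 in that comparison, Pla2g4a was -0.022 to 0.34 between LILRB4 and WT, and against WT the SCG2 knockout gave -0.094 to 0.092 for Ptgs1 and -0.13 to 0.15 for Pla2g4a. The same settings were added for the other named genes after the data were seen. Between SCG2 knockout and LILRB4, Ptges3 was -0.015 with DESeq2 and RLE factors, -0.016 with recovered counts, -0.046 with limma and -0.11 to 0.084 without single libraries, and Tbxa2r was 0.027 with log2(FPKM + 0.1) and -0.41 to 0.067 without single libraries. Without single libraries Pla2g15 was -0.66 to 0.010, Ptgr1 -0.11 to 0.27 and Dusp1 -0.030 to 0.27 in that comparison; Ptgir was -0.15 to 0.024, Ltb4r1 -0.52 to 0.55 and Nr4a1 -0.21 to 0.037 between LILRB4 and WT; and Pla2g7 was -0.19 to 0.0028, Cotl1 -0.21 to 0.057, Cyp4f18 -0.25 to 0.15 and Fpr2 -0.45 to 0.18 between SCG2 knockout and WT. For settings other than fewer libraries or fewer genes, the cause was not tested. Ltc4s and Hpgds rest on 19 to 72 recovered counts, where small differences were not detectable at this depth.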

Other observations

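These genes were picked after their values were seen. Cysltr2, which encodes a cysteinyl leukotriene receptor, was at 2.05, 0.782 and 0.947 FPKM in WT replicates 1, 2 and 3, at 7.18, 0.821 and 4.35 FPKM in LILRB4 libraries and at 3.75, 4.66 and 6.004 FPKM in SCG2 knockout libraries. LILRB4 replicate 2, the library lowest in T and NK cell markers, was level with WT. The log2 difference between LILRB4 and WT was 1.67 (SE 0.69, edgeR adjusted p = 0.199), and DESeq2 called it (adjusted p = 0.0432). Genes entered the count table by their counts in LILRB4 replicates 1 and 3, the LILRB4 libraries where Cysltr2 was high, so that call is favoured by the filter. On FPKM, limma did not call Cysltr2 (adjusted p = 0.372). Abcc1, an exporter of leukotriene C4, was at 6.58 to 7.88 FPKM in WT, at 9.47 to 14.1 in LILRB4 and at 9.02 to 11.6 in SCG2 knockout libraries, with a log2 difference between LILRB4 and WT of 0.58 (SE 0.18, edgeR adjusted p = 0.0997). Mgst3, a membrane-bound glutathione transferase gene, was at 24.1 to 44.8 FPKM in WT, at 12.6 to 26.4 in LILRB4 and at 17.3 to 21.6 in SCG2 knockout libraries, with a log2 difference between LILRB4 and WT of -0.79 (SE 0.27, edgeR adjusted p = 0.130). WT lay apart from both other groups for Abcc1 and apart from the SCG2 knockout for Mgst3. Of 18904 genes, 9.93% were above WT without overlap in LILRB4 and 10.5% in the SCG2 knockout. For Abcc1 and Mgst3 edgeR made no call in any comparison, while DESeq2 called Abcc1 between LILRB4 and WT (log2 0.60, adjusted p = 0.0281).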
